A study of Mus musculus with 6 samples.

Results

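Ccl2, Ccl3 and Ccl5 are 3 small secreted proteins of the CC chemokine family, named for a pair of adjacent cysteines, that attract leukocytes by way of G protein-coupled receptors. Their transcripts were followed here in mouse macrophages with and without bacterial lipopolysaccharide (LPS). They were picked by identifier, as the transcript rows ENSMUST00000000193_at for Ccl2, ENSMUST00000001008_at for Ccl3 and ENSMUST00000035938_at for Ccl5, and all 3 were present among 74007 rows. The pairing of identifier and gene name comes with that selection. The expression table holds identifiers only, and the RefSeq gene table at hand holds 0 Ensembl identifiers. For the same reason the other CC chemokines, their receptors and markers of macrophages or of other cell types were not analysed here. The genes were selected with their response to LPS in view, so that response is described below without a test.

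The cells were macrophages grown from the femoral marrow of female C57BL/6J mice aged 8 to 12 weeks, in recombinant human macrophage colony-stimulating factor (M-CSF) at 50 ng/mL. All 6 cultures were replated on day 6. On day 7, 3 cultures received LPS at 10 ng/mL for 4 h and 3 received no stimulus, with each of 3 animals giving 1 culture to each group. Each culture was measured on 1 Affymetrix mouse exon array, whose values are log2 expression levels per transcript. Array medians were 7.91, 7.92 and 7.92 in the unstimulated arrays and 7.77, 7.77 and 7.75 in the LPS arrays. Every LPS array thus had a lower median than every unstimulated array, and the values were used without adjustment for this. Array minima lay between 5.84 and 5.92 and array maxima between 13.99 and 14.38. The signal of a row also depends on its probes, so levels are not compared between the genes, while sizes of change are. In such bulk cultures, fewer producing cells and less RNA per cell cannot be told apart.

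LPS is sensed by TLR4, which signals through the adaptor MyD88 to NF-κB and AP-1 and through the adaptor TRIF to IRF3 and type I interferon. Macrophages are a main source of CC chemokines early in infection. Ccl2, also called MCP-1, acts on CCR2 and draws inflammatory monocytes. Ccl3, also called MIP-1α, attracts monocytes and other leukocytes, and Ccl5, also called RANTES, attracts T cells among others. In the RefSeq table of assembly GRCm38.p6 all 3 genes lie on chromosome 11. There Ccl5 and Ccl3 belong to the same run of chemokine genes, with 2 protein-coding genes between them, Ccl9 and Ccl6, while Ccl2 lies in a separate run whose next member is Ccl7. Ccl4 is the next protein-coding gene beyond Ccl3.

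All 3 genes were higher with LPS, by very different amounts. Ccl5 was below the array median without LPS and rose the most, by 43.6-fold. Ccl2 rose by 7.98-fold from an unstimulated level that varied widely between cultures. Ccl3 was already among the brightest rows without LPS and rose by 2.14-fold. For each of the 3 genes every LPS array lay above every unstimulated array, as did 14.9% of all rows.

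**Figure D1:**
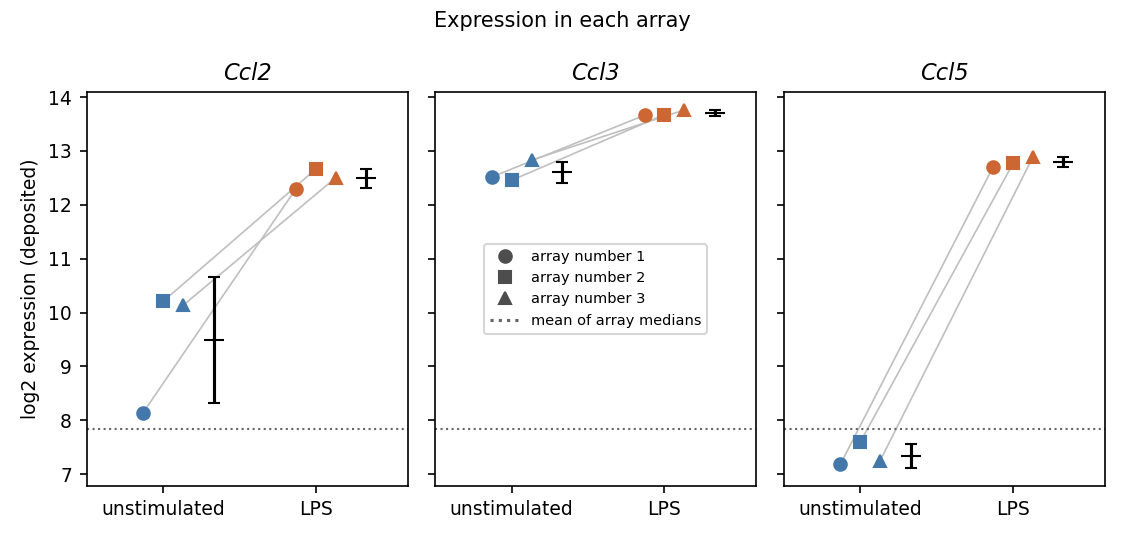
Deposited log2 expression of Ccl2, Ccl3 and Ccl5 in each array (vertical axis). Blue points are unstimulated and orange points LPS-treated cultures, symbols and thin lines join arrays of the same number, black bars give the mean ± SD (n = 3), and the dotted line is the mean of the array medians; heights are not comparable between genes. Ccl2 in unstimulated array 1 (8.15) stands apart from the other unstimulated arrays (10.21 and 10.13).

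Ccl2 was measured at 8.15, 10.21 and 10.13 (log2 expression) in unstimulated arrays 1, 2 and 3. It was measured at 12.30, 12.67 and 12.50 in LPS arrays 1, 2 and 3. The unstimulated cultures thus split into a low array 1 and a close pair of arrays 2 and 3, whereas the LPS arrays lay together, and the lowest LPS array exceeded the highest unstimulated array by 2.09. Group means were 9.50 ± 1.17 without stimulus and 12.49 ± 0.18 after LPS (SD, n = 3 each), giving a log2 difference of 3.00 ± 0.53 (limma SE). Without unstimulated array 1 the unstimulated mean of Ccl2 was 10.17 and its difference 2.32, or 4.995-fold. Within same-numbered pairs Ccl2 rose by 17.8-fold in pair 1, 5.49-fold in pair 2 and 5.18-fold in pair 3. The larger rise in pair 1 came with the lower unstimulated value, since its LPS value was the lowest of the 3 LPS arrays. Among all rows the change of Ccl2 ranked 264, and it ranked 450 without unstimulated array 1.

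The scatter of Ccl2 between unstimulated cultures was among the widest on the arrays. Its SD of 1.17 ranked 5 among 74007 rows, against a median SD of 0.078. In unstimulated array 1 Ccl2 stood at percentile 55.4 of the array's rows, and in arrays 2 and 3 at percentiles 90.7 and 89.6. With LPS its SD of 0.18 ranked 13891, and its percentiles ran from 99.1 to 99.6. Unstimulated array 1 lay 1.99 below the nearer of the other unstimulated arrays for Ccl2. A gap of more than 1.5 in this direction was found in 4 rows including Ccl2, of which 1 may be the same measurement as Ccl2 (ENSMUST00000124479_at), and a gap of that size upwards in 3 rows. All 4 rows were also higher with LPS, by log2 differences from 2.07 to 3.54, to which the low value in unstimulated array 1 itself adds. Among the 661 rows at least 4-fold higher with LPS, which were picked on these same arrays, unstimulated array 1 was the lowest of its group in 52.2%, against 34.6% of all rows. Whether the low Ccl2 value belonged to the animal, the culture or the array cannot be told apart with 1 array of each.

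**Figure D2:**
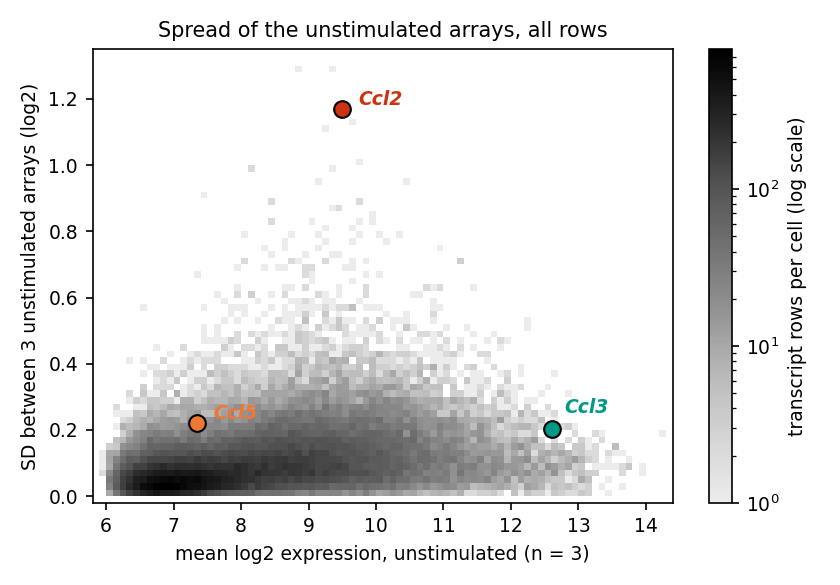
SD between the 3 unstimulated arrays (vertical axis, log2 units) against the mean unstimulated log2 expression (horizontal axis) for all 74007 rows, as grey cells shaded by the number of rows on a log scale, with the 3 chemokines as coloured points. Ccl2 (SD 1.17) lies above nearly all rows, while Ccl3 (0.20) and Ccl5 (0.22) lie far below Ccl2 and above the median SD of all rows (0.078).

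Ccl3 was measured at 12.52, 12.46 and 12.83 in unstimulated arrays 1, 2 and 3. With LPS it was measured at 13.66, 13.68 and 13.76. The groups did not overlap, the distance between them being 0.83, and unstimulated array 3 was the highest of its group, as was LPS array 3. Group means were 12.60 ± 0.20 without stimulus and 13.70 ± 0.054 after LPS (SD, n = 3 each), giving a log2 difference of 1.10 ± 0.10 (limma SE). The rise of Ccl3 was 2.22-fold, 2.33-fold and 1.91-fold in pairs 1, 2 and 3. Among 74007 rows its change ranked 1968, and between 1741 and 2454 over the alternatives. A 2-fold rise in the group means, which 3.01% of all rows showed, was reached by all 3 chemokines, and at least 2-fold in every pair, shown by 2.33% of rows, by Ccl2 and Ccl5 but not Ccl3. A 4-fold rise, shown by 0.893% of rows, was likewise reached by Ccl2 and Ccl5. Ccl3 missed the 2-fold rise in pair 3 only, and on values not centred by array. In that pair Ccl3 lay 4.91 above the array median without LPS and 6.01 above it with LPS, which is more than 2-fold.

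Rows at the upper end of the scale may have less room to rise. Ccl3 lay 1.79, 1.58 and 1.54 below the highest value of unstimulated arrays 1, 2 and 3. A row's place on the scale depends on its probes, so the following counts only describe where Ccl3 lay on these arrays. Its unstimulated mean was exceeded by 296 rows, of which 0 rose at least 2-fold, and the changes of these rows ran from -1.39 to 0.38 (values only, no test). Of the 306 other rows with an unstimulated mean within 0.25 of that of Ccl3, 0 rose at least 2-fold either, and their largest log2 difference was 0.61. With LPS the mean of Ccl3 was exceeded by 8 rows. Ccl3 then lay 0.57, 0.31 and 0.52 below the highest value of LPS arrays 1, 2 and 3. Of those 8 brighter rows, 2 had risen at least 2-fold, by a log2 difference of up to 5.23. The part that the upper end of the scale plays in the size of the change of Ccl3 was not tested.

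**Figure D3:**
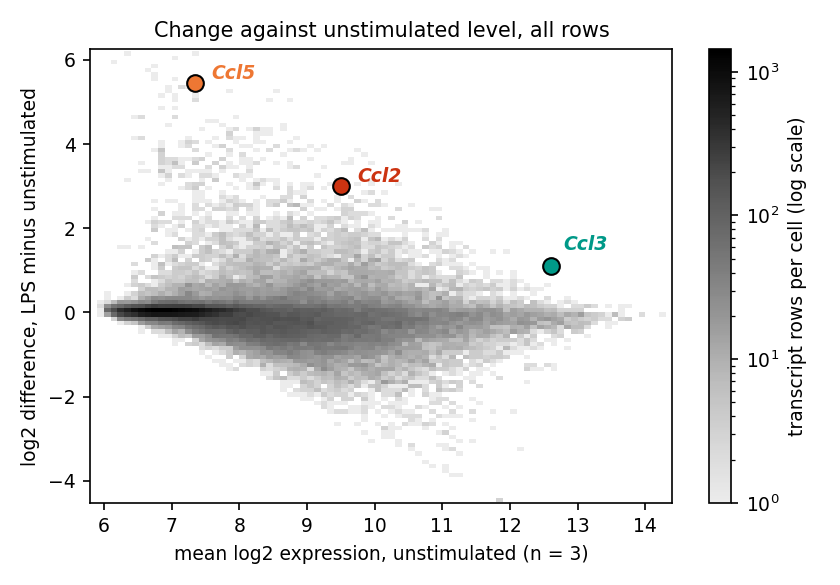
Log2 difference between LPS and unstimulated arrays (vertical axis) against the mean unstimulated log2 expression (horizontal axis) for all 74007 rows, as grey cells shaded by the number of rows on a log scale, with the 3 chemokines as coloured points. Ccl5 sits at the left among the largest rises, Ccl2 in the middle, and Ccl3 at the right, with a log2 difference of 1.10.

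Of the 3 genes, Ccl3 was the 1 matched in the RefSeq promoter table, and its window is shown for that reason. It comprises the 250 bases before the RefSeq start of the gene, at chr11:83649379-83649628 of GRCm38.p6 on the minus strand, written 5′ to 3′, with the 40 bases nearest the start in capitals.
Ccl3 promoter: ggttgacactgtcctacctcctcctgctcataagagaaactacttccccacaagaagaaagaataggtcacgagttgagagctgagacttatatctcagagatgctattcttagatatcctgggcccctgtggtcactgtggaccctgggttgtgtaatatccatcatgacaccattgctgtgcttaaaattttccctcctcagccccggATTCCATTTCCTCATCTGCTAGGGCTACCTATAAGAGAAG
This stretch and the next 50 bases were searched on both strands for 6 motifs, with 0 matches for each. They were the NF-κB consensus, held by 8.46% of 32851 promoter windows of the same length, AP-1 as TGANTCA (7.81%), the interferon-stimulated response element core as GAAA, 2 bases of any kind and GAAA (3.44%), the TATA box as TATAAA (13.6%), the GC box as GGGCGG (35.7%) and C/EBP as TTGCNNAA (10.8%). The result says only that these letters are not in this window.

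Ccl5 was measured at 7.18, 7.59 and 7.25 in unstimulated arrays 1, 2 and 3. With LPS it was measured at 12.71, 12.77 and 12.89. The lowest LPS array exceeded the highest unstimulated array by 5.11, and unstimulated array 2 was the highest of its group. Group means were 7.34 ± 0.22 without stimulus and 12.79 ± 0.093 after LPS (SD, n = 3 each), giving a log2 difference of 5.45 ± 0.12 (limma SE). Across pairs 1, 2 and 3 the rise of Ccl5 was 46.0-fold, 36.2-fold and 49.9-fold. Its change ranked 10 among all rows as deposited and 21 after background subtraction, and of the 11989 other rows within 0.25 of its unstimulated mean, 1 rose more.

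Unstimulated Ccl5 lay below the array median, at percentiles 28.9, 42.4 and 31.2 of arrays 1, 2 and 3, and 1.34, 1.71 and 1.34 above the array minimum. With LPS it stood between percentiles 99.7 and 99.8. No detection level came with the values, so the values do not show whether unstimulated cultures held any Ccl5 transcript, and if they held none the fold is a lower bound. With the 1st percentile of each array subtracted on the linear scale, the rise of Ccl5 was 81.3-fold, while that of Ccl2 was 9.12-fold and that of Ccl3 2.16-fold.

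The order of the changes, Ccl5 above Ccl2 above Ccl3, was the same in each of the 3 pairs. The change of Ccl5 exceeded that of Ccl2 by 1.37, 2.72 and 3.27 (log2) in pairs 1, 2 and 3, a mean of 2.45 ± 0.98 (SD, n = 3). It exceeded the change of Ccl3 by 4.38, 3.96 and 4.71, a mean of 4.35 ± 0.38. The change of Ccl2 exceeded that of Ccl3 by 3.01, 1.24 and 1.44, a mean of 1.90 ± 0.97. Both distances from Ccl2 rest in part on unstimulated array 1: without it Ccl5 exceeded Ccl2 by 3.05 and Ccl2 exceeded Ccl3 by 1.26.

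**Figure D4:**
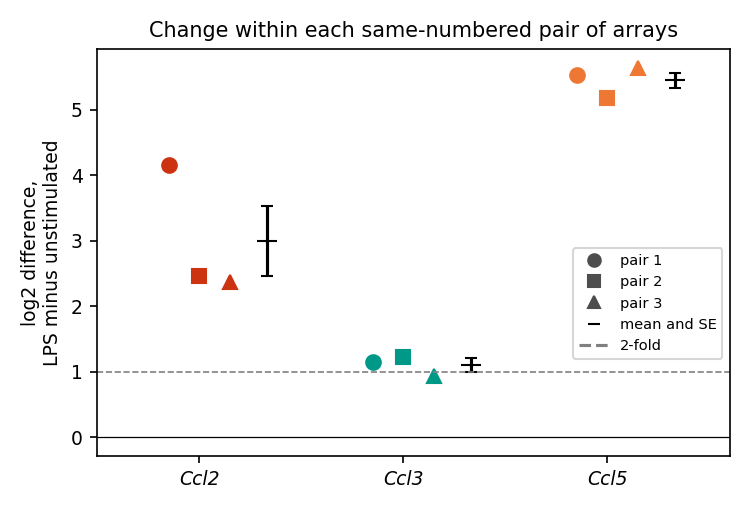
Log2 difference, LPS minus unstimulated (vertical axis), within each same-numbered pair of arrays for the 3 chemokines, with a dashed line at a 2-fold rise. Black bars give the mean ± SE from the limma fit without pairing, so they do not measure the spread of the points. The points of Ccl5 lie between 5.18 and 5.64, those of Ccl2 between 2.37 and 4.16 and those of Ccl3 between 0.93 and 1.22.

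Differences between replicate numbers were not used in choosing the genes and could be tested. The numbers come from the sample titles and were taken to stand for the animals. With treatment in the model, the mean of both arrays numbered 1 was 1.15 below that of the other arrays for Ccl2 (a difference of -1.15), against -0.091 for Ccl3 and -0.18 for Ccl5. The largest such difference of Ccl3 was that of number 3, at 0.22. For Ccl2 the arrays numbered 1 were the lowest of both groups, by a wide margin without LPS and a narrow one with it. The effect of the number did not pass the test for Ccl2 (limma F test, adjusted p = 0.43, unadjusted p = 0.092), Ccl3 (adjusted p = 0.44, unadjusted p = 0.095) or Ccl5 (adjusted p = 0.60, unadjusted p = 0.26). Where 1 array is left out, its number is held by 1 array alone, and the test then cannot tell the number from that array. Over all rows the limma F test called 0%, or 0 rows, at an adjusted p under 0.05, and 9996 rows (13.5%) at an unadjusted p under 0.05. That last count was 4656 without unstimulated array 1, 4677 without LPS array 1 and 17159 without unstimulated array 3. With 3 animals and 1 array of each per group, a difference between animals that appears in only 1 group adds to the error of this test.

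Likeness to each gene was measured by the root mean square distance between the 6 log2 values, after each row was centred on its own mean. Nearest to Ccl2 was ENSMUST00000124479_at, at a distance of 0.032, with 8.08, 10.15 and 10.09 in the unstimulated and 12.20, 12.53 and 12.42 in the LPS arrays. It repeats the low value in unstimulated array 1, and at this distance it need not be a separate measurement. The next nearest rows lay at 0.28 and 0.35 and were also lowest in unstimulated array 1. Rows picked by this distance resemble their gene by selection, in single arrays as in the rise. Such likenesses, here and for Ccl3 and Ccl5 below, are therefore no separate result. Nearest to Ccl3 was ENSMUST00000005072_at, at 0.035, which rose by a log2 difference of 1.06 from a mean of 8.11. The 3 rows nearest to Ccl5 lay at distances from 0.14 to 0.18 and rose by 5.13 to 5.74. Neither identifier could be given a gene name. Of 71255 distinct rows, 34 correlated with Ccl2 at r above 0.99 over the 6 arrays, 88 with Ccl3 and 938 with Ccl5.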

How the data were processed

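RNA of 6 cultures was labelled and hybridised to 1 exon array each. The deposited values are log2 expression values that the authors made per transcript-level probe set, per the labels and the design text. PLIER, which summarises probes, and Affymetrix Power Tools are named in the submitters' processing notes. For the probe annotation, the genome build, any offset and any scaling of arrays, the entry is "not given in the sources used here". Values were used as deposited, with no filter or offset, and samples were grouped by title.

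Changes are LPS minus unstimulated. Their SE came from limma 3.58.1 in R 4.3.3 (lmFit and eBayes, all 74007 rows). The effect of the replicate number was tested by limma's moderated F test beside the treatment term, with Benjamini-Hochberg adjustment over all rows and a threshold of 0.05. Per the design text, every animal contributed to both groups. After subtraction of group means, the arrays sharing a number correlated across rows at 0.50, 0.30 and 0.12 for numbers 1, 2 and 3, so the numbers were taken as pairs; the SEs in the text are from the fit without this block. The genes, lists and motifs were chosen with earlier results of these data known. The rows most like a gene were chosen by distance, members and rows sharing all values left out, and at most 2 identifiers are printed. The number of arrays limits the precision. Promoter sequence is from RefSeq (GRCm38.p6), where 1 of the 3 genes was matched. Alternatives covered a replicate block, 4 normalizations, an offset, background subtraction and left-out arrays. Figures were drawn with matplotlib 3.10.9.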

Additional observations from a re-analysis of the deposited data

How the results depend on the processing

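All 3 changes stayed rises, in the order Ccl5, Ccl2, Ccl3, under the replicate block, 4 normalizations, the offset of 16, background subtraction and every left-out array. Of 261 comparisons of a value with an alternative, 11 moved and 0 reversed. A log2 value counted as moved past 1 SD between replicates or pairs, a rank past 1.5 times and a count of rows or motifs on any change. An adjusted p under the threshold counted as stronger, which 0 were. Some comparisons could not move, such as the changes under the replicate block or the LPS levels with an unstimulated array left out. The SD of Ccl2 is wide, so its fall from 3.00 to 2.32 without unstimulated array 1 was not counted, and the tally does not measure stability. With the replicate block, that is with same-numbered arrays as pairs, the differences were unchanged by construction at 3.00, 1.10 and 5.45 for Ccl2, Ccl3 and Ccl5. Their SEs were then 0.38, 0.073 and 0.10. These limma SEs draw on the variance of all rows, and the Ccl2 differences of the 3 pairs had an SD of 1.01. Ccl3 changed by 1.25 with median centring and 1.28 with centring on rows above the median level, and Ccl5 by 5.63 with the latter. Both centrings shift every row of an array by the same amount. Median centring removes the lower medians of the LPS arrays, which raises every change. Background subtraction gave 6.35 for Ccl5, a distance to the change of Ccl3 of 5.24, and rank 21 instead of 10 for Ccl5. Leaving out 1 array gave changes from 2.32 to 3.35 for Ccl2, 1.03 to 1.21 for Ccl3 and 5.37 to 5.57 for Ccl5, and ranks from 197 to 450 for Ccl2. Leaving out both arrays of a number, added after the data were seen, gave 2.41 to 3.31 for Ccl2. The replicate-number test called 2 rows rather than 0 among rows at or above the median level, none of them a member, and adjusted p-values of the 3 genes ran from 0.25 to 0.90 over its alternatives. Ccl3 motif counts stayed at 0 without the bases after the start. The lack of a detection level limits what the low values of Ccl5 show.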
